A study of Mus musculus with 8 samples.

Results

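Colony cells were compared here with macrophages that had received interleukin-4 (IL-4), the cytokine most used to bring about alternative activation. The comparison rests on the 2 colony cell samples and the 2 samples of macrophages treated with IL-4, which are 4 of the 8 samples of the study, and it was chosen from the sample labels alone. It bears on the question in the study's title, whether endothelial cells act as a niche for macrophages like those of the alternative, or M2, state. Each sample was measured on a 1-colour array, which reads how brightly labelled RNA lights up spots of DNA probes.

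Mice of all groups were on a B6.Cg background and carried the transgene Tg(CAG-DsRed*MST)1Nagy, a DsRed reporter driven by the broadly active CAG promoter. Macrophages grew from bone marrow on a dish over 7 days with M-CSF, the macrophage growth factor, and IL-4 was given for 24 hours. Colony cells arose from marrow in the same 7 days, but on a monolayer of endothelial cells and in a medium for haematopoietic stem cells. Control macrophages, which had M-CSF and control medium only, and macrophages given lipopolysaccharide (LPS) for 24 hours are cited beside some genes and entered the estimate of the spread. Substrate, medium and stimulus differed together between colony cells and IL-4 macrophages, so their parts cannot be told apart. The labels used here give neither the animals' age or sex nor the origin of the endothelial cells, and do not say whether these cells were removed before RNA was extracted. Nor is it stated that replicates are different mice or different cultures, so each p-value measures only the spread between these samples, which may be technical.

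IL-4 binds a receptor made of IL-4Rα and a partner chain, JAK kinases phosphorylate the transcription factor STAT6, and STAT6 switches on a set of genes by which alternatively activated macrophages are known. Mouse macrophages in this state make arginase 1 (Arg1), the resistin-like protein RELMα (Retnla), chitinase-like proteins (Chil3, Chil4) and lectin receptors such as the mannose receptor (Mrc1). Arg1 can also be switched on by routes other than IL-4, among them low oxygen, lactate and other cytokines, whereas Retnla is usually taken as a close marker of IL-4 and IL-13.

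The median background-subtracted signal of a spot, before scaling, was 35.9 and 31.3 on the IL-4 arrays and 53.2 and 55.1 on the colony arrays, and the log signal at the low end of the spike-in RNA curve, per the file headers, was 0.73 and 0.69 against 0.50 and 0.47. The share of spots that passed the scanner's test against background ranged from 63.1% to 67.5%, and the Pearson correlation across genes was 0.996 within the colony pair, 0.997 within the IL-4 pair and 0.851 to 0.853 between the groups; genes are not independent replicates. A level below is the log2 signal minus the 75th percentile of that array, and a difference is the colony mean minus the IL-4 mean of such levels. Its standard error (SE, after ±) comes from the fit of all 4 groups, with 2 arrays per group. Control and LPS arrays therefore enter each SE, which can exceed the spread of the 2 groups compared. Msln, for example, has an SE of 0.91 and LPS levels of -8.33 and -5.38. The test was limma's moderated test over all 26504 genes, and a gene was called where the p adjusted by Benjamini-Hochberg lay under 0.05. With 2 arrays a group, the smallest two-sided p of an exact permutation test is 0.333, so each call leans on a spread shared across genes and groups.

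Most genes differed. Of 26504 genes, 18991 (71.7%) were called: 6441 (24.3%) higher in colony cells and 12550 (47.4%) lower. The median difference of all genes was -0.37, and 5170 genes lay 2-fold or more above it and 3800 2-fold or more below it. Another scaling, on the array median, moved the median of all genes to -0.54. Since most genes were called, the size and direction of each difference are given, to be read against -0.37. A gene is called dim in a group where none of its probes passed the scanner's test against background on either array, and then only a lower bound of its fold is given. For the bound, each dim array counts with its lowest passing signal, or with the gene's own signal if that is higher, and the brighter group's mean is divided by the mean of these, all from the scanner's background-subtracted signals. The bounds depend on that correction of the background.

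**Figure D1:**
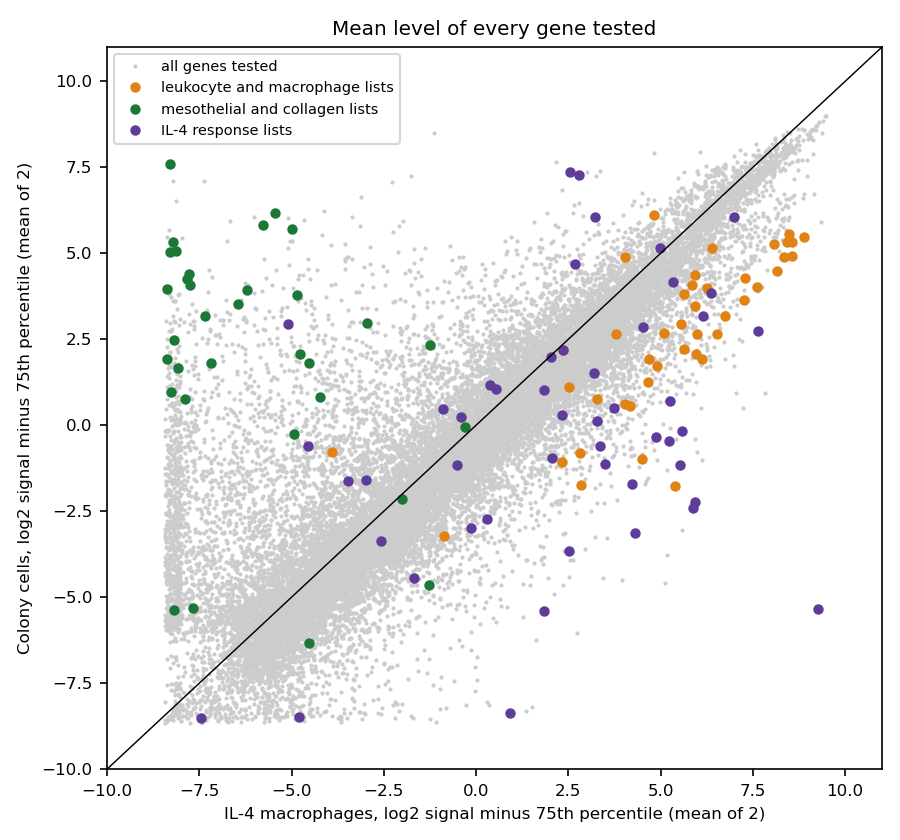
Mean level (log2 signal minus the array's 75th percentile, 2 arrays per group) of each gene tested in IL-4 macrophages (horizontal axis) and colony cells (vertical axis), with 3 groups of gene lists in colour and the line of equal levels. Of the genes called, 22 of 23 leukocyte and 17 of 20 macrophage markers lie below the line, 17 of 18 mesothelial markers and 13 of 15 collagens above it, and IL-4 response genes on both sides.

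Before the IL-4 genes are described, the makeup of the samples has to be given, because many marker genes of cell types moved with the group. Of 23 genes that all white blood cells share, 22 were lower in colony cells and 1, the granule proteoglycan gene Srgn (difference 1.29 ± 0.12), was higher. The median difference of the list was -2.81, and its summed linear signal in the colony samples was 18.2% and 18.4% of the IL-4 mean. Of 20 macrophage markers, 17 were lower, among them Adgre1, which codes for F4/80, and Csf1r, which codes for the receptor of M-CSF. Adgre1 had levels of 6.53 and 6.55 in the IL-4 samples and 2.64 and 2.67 in the colony samples (difference -3.89 ± 0.09), and Csf1r fell by 3.42 ± 0.10. All 20 macrophage markers tested were nevertheless well above background on both colony arrays, so macrophage transcripts were present. Itgam, which codes for CD11b (0.85 ± 0.08, but 0.10 and not called when its 3 probes were averaged), and Cx3cr1, the fractalkine receptor gene (3.11 ± 0.10, or 1.87 with normexp, another background correction), were higher. In bulk samples, fewer cells of a type and less RNA per cell cannot be told apart.

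Markers of tissue lining and connective tissue cells went the other way. Of 18 mesothelial markers, 17 were higher in colony cells, and 12 of the 18 were not well above background on either IL-4 array. Msln, which codes for mesothelin, was at least 13130-fold higher, with colony levels of 7.62 and 7.56. The summed mesothelial signal was 44532% and 43367% of the IL-4 mean. Of 16 fibroblast markers 13 were higher, of 12 smooth muscle and pericyte markers 10, and of 13 mast cell and basophil markers 12. The 17 endothelial markers tested were split, with 6 higher and 9 lower, against 24.3% and 47.4% of all genes. Their median was -0.39 (-0.02 with the mean of all probes and -0.66 over the 10 genes well above background on all 4 arrays). Well above background on both arrays were 16 of the 17 in colony cells and 11 in IL-4 macrophages. Of the endothelial genes listed, Cdh5, which codes for the defining junction protein VE-cadherin, was not well above background on either colony array (at least 5.24-fold lower). Tie1, Emcn, Erg, Sox17 and Sox18 did not pass the filter on dim probes. Esam, an adhesion molecule gene, was at least 476-fold higher. All 4 genes of the Y chromosome were lower: Ddx3y fell by 2.98 ± 0.07, Eif2s3y by 2.80 ± 0.09 and Uty by 2.24 ± 0.69 (by 1.10 without colony replicate 1 and 3.38 without colony replicate 2, and not called without either control array or either IL-4 array), and Kdm5d was at least 2.06-fold lower. Xist, the RNA of the silent X chromosome, was at least 122-fold higher. The part of these other cells in each result that follows was not tested, and the median of the shared leukocyte genes, -2.81, which corresponds to 14.3% of the IL-4 level, is given as a second reference beside -0.37.

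Set against IL-4 macrophages, the listed IL-4 response genes did not move as a block in colony cells. The lists were not limited to genes that IL-4 raised here, and they were chosen with earlier results of these data known. Median differences between IL-4 and control macrophages were 4.03 (secreted proteins and enzymes), 0.89 (surface proteins) and 1.81 (signalling and transcription). Some members, such as Ch25h (-1.40), F13a1 (-1.36) and Folr2 (-0.77), were lower with IL-4 than in control. The 3 lists of IL-4 response genes held 52 genes, of which 49 passed the filter on dim probes. Of these 49, 12 were called higher and 32 lower, 5 were not called, and the median difference was -2.52. Of all genes, 24.3% were called higher and 47.4% lower. The share higher among the 49 is thus near that of all genes, and the share lower is above it. By group means, colony cells lay above both control and IL-4 macrophages for 13 of the 49, between them for 16 and below both for 20. Of the 26455 other genes, 8224, 2351 and 15880 did so. Below the leukocyte median of -2.81 lay 23 of the 49, or 46.9%, and 3.58% of all other genes. This was not particular to IL-4 response genes. Also below it lay 14 of 20 macrophage markers, 7 of 12 MHC class II genes and 9 of 23 myeloid transcription factors. Fewer did among Toll-like receptor and adaptor genes (6 of 18) and lysosomal genes (4 of 25). Some genes are in more than 1 list.

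Among the secreted proteins and enzymes of the IL-4 response, 5 of 16 tested were higher (Arg1, Fn1, Ch25h, F13a1 and Il1rn), 8 were lower and 3 were not called, with a median of -1.10. The shares higher and lower are near those of all genes (24.3% and 47.4%). Arg1, whose enzyme turns arginine into ornithine and urea, had levels of 2.73 and 2.83 in the IL-4 samples and 7.25 and 7.31 in the colony samples. The groups did not overlap, which held for 89.5% of all genes, and the difference of 4.50 ± 0.07 is 22.6-fold (limma adjusted p = 5.8e-07). In control macrophages Arg1 was not well above background on either array. Retnla, which codes for RELMα, showed the reverse. Its levels were 9.20 and 9.32 in the IL-4 samples and -5.11 and -5.58 in the colony samples, a difference of -14.61 ± 0.54 (adjusted p = 6.2e-06), the lowest of all genes with a symbol. Both colony arrays still read it as well above background, and neither control array did.

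Eosinophil-associated ribonucleases and chitinase-like proteins were lower with Retnla. Rnase2a, a ribonuclease gene of eosinophils and IL-4 macrophages, stood at 5.86 and 5.91 with IL-4 and at -2.43 and -2.38 in colony cells, so it fell by 8.29 ± 0.09. Its relative Ear10 fell by 7.43 ± 0.07, from 4.24 and 4.36 to -3.11 and -3.15, which lies next to its control levels of -3.26 and -3.24. Probes of these close relatives can bind RNA of more than 1 gene, and the same holds for Chil3 and Chil4. Chil3, which codes for Ym1, had levels of 6.34 and 6.41 with IL-4, 3.79 and 3.91 in colony cells and 2.50 and 2.39 in control macrophages, and its difference of -2.52 ± 0.08 is close to the leukocyte median. Chil4 differed by -3.03 ± 0.14. Of the chemokine genes of this response, Ccl24, which codes for eotaxin-2, fell by 3.15 ± 0.07, and Ccl17, which attracts T helper cells, by 2.76 ± 0.21 (by 1.72 with normexp). Ccl22 was not well above background on any of the 4 arrays. Ptgs1, the gene of cyclooxygenase-1, fell by 1.15 ± 0.09 (by 0.63 with quantile normalization).

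Among the other higher genes of this list, only Fn1 was also higher with IL-4 than in control. Fn1, which codes for the matrix protein fibronectin, had levels of -3.03 and -2.57 in control, 2.56 and 2.53 in IL-4 and 7.36 and 7.39 in colony samples, and its difference was 4.83 ± 0.18. Fn1 is also made by fibroblasts and mesothelium, whose markers were higher in the colony samples, and their part in it was not tested. Ch25h, the cholesterol 25-hydroxylase gene, had levels of -3.46 and -3.93 in control, -5.02 and -5.16 in IL-4 and 2.88 and 2.99 in colony samples. Its difference of 8.03 ± 0.16 was the highest among the measured IL-4 response genes. F13a1, the gene of the coagulation factor XIII A chain, followed with 2.84 ± 0.07, and Il1rn, which codes for the interleukin-1 receptor antagonist, with 1.39 ± 0.13 (0.87 with normexp). F13a1 was at 3.19 and 3.24 with IL-4, 6.01 and 6.09 in colony cells and a mean of 4.57 in control. Il1rn was at -2.88 and -3.10 with IL-4, -1.71 and -1.49 in colony cells and -3.15 and -2.99 in control.

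A pair of genes in this list lay near the IL-4 level, but only Rbp4 was also higher with IL-4 than in control. Rbp4, which codes for retinol-binding protein 4, had levels of -0.50 and -0.54 with IL-4 and -1.21 and -1.13 in colony cells, and was not well above background in control macrophages. Its difference of -0.65 (95% interval -1.65 to 0.36, adjusted p = 0.20 by limma) was not called, although the groups, like those of 89.5% of all genes, did not overlap. It was called when only the 4 arrays compared were fitted (limma adjusted p = 0.0025) and with normexp (-0.55). Tgm2, the transglutaminase 2 gene, differed by 0.19 (interval -0.003 to 0.37, adjusted p = 0.071 by limma) and was called with quantile normalization (0.72, limma adjusted p = 2.2e-04). Tgm2 was also called higher with normexp, with the mean of all probes and with an estimate of the spread that follows signal level. Its mean level was 4.85 in control, 4.98 with IL-4 and 5.16 in colony cells. IL-4 and control macrophages differed in Tgm2 by only 0.13 (limma adjusted p = 0.31), so its level in colony cells does not show a kept IL-4 response.

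**Figure D2:**
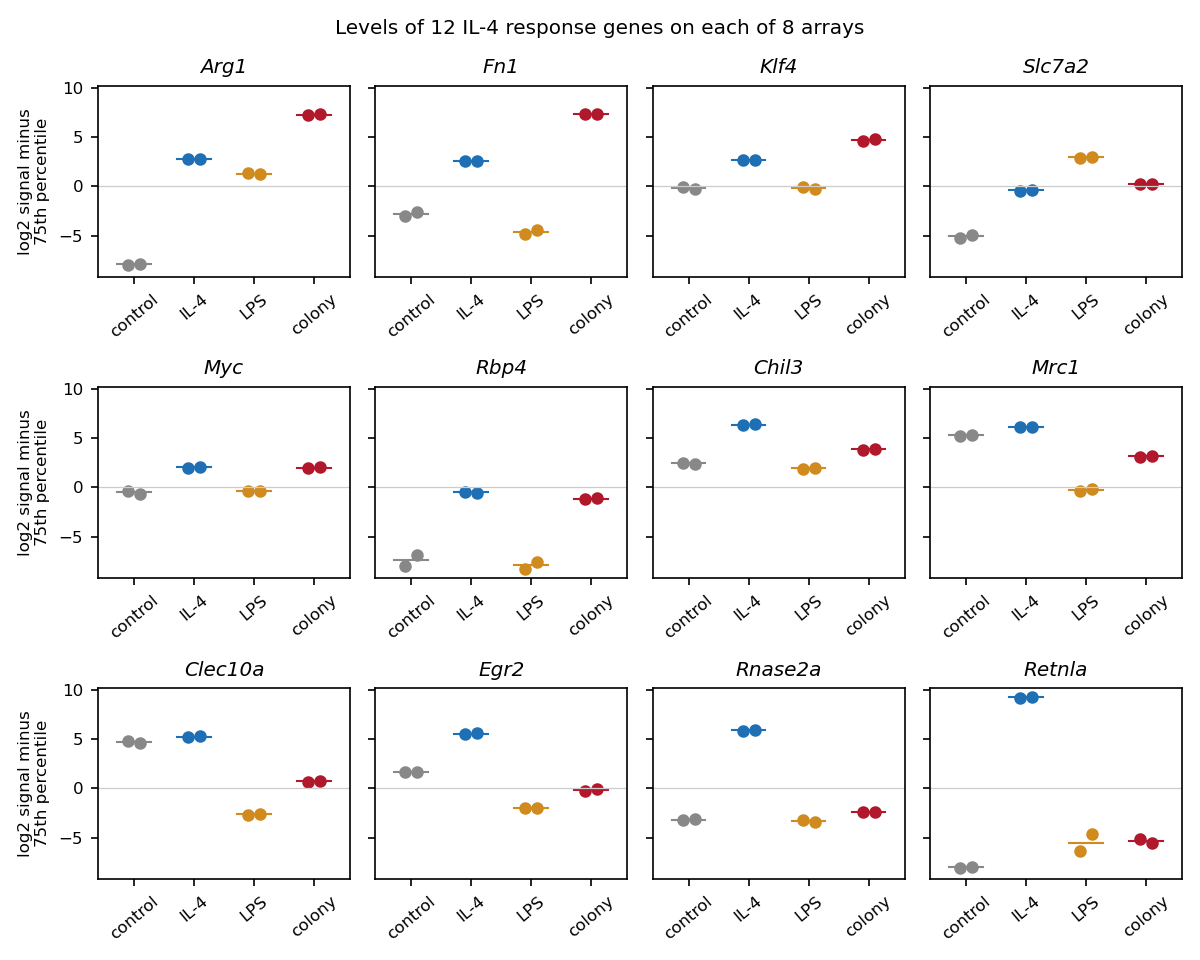
Level (log2 signal minus the array's 75th percentile) of 12 IL-4 response genes on each of the 8 arrays, by group; dots are arrays and short lines group means. In colony cells Arg1, Fn1 and Klf4 lie above the other 3 groups, Myc and Rbp4 near IL-4, and Retnla, Rnase2a and Egr2 far below IL-4.

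The receptors and surface proteins of the response were mostly lower. Of 17 tested, 3 were higher, 13 lower and 1 not called, with a median of -3.24, or -2.98 with dim genes set at their bounds. Mrc1, the mannose receptor gene, had levels of 6.13 and 6.17 with IL-4 and 3.12 and 3.22 in colony cells, a difference of -2.98 ± 0.10 that lies next to the leukocyte median. The lectin receptor genes Clec10a (-4.55 ± 0.09) and Clec7a (-4.91 ± 0.08), which codes for dectin-1, lay below that median, while Mgl2, a close relative of Clec10a, fell only by 0.93 ± 0.07 (by 0.51 with quantile normalization). Mgl2 had levels of 6.94 and 7.02 with IL-4, 6.08 and 6.02 in colony cells and 5.80 and 5.85 in control. The genes farthest below were Tmem26, which codes for a membrane protein and was at least 150-fold lower, Cd36, the fatty acid and scavenger receptor gene, and Pdcd1lg2, the gene of the inhibitory ligand PD-L2. Cd36 fell from 5.83 and 6.01 to -2.15 and -2.31 (by 8.15 ± 0.16), and Pdcd1lg2 from 1.80 and 1.88 to -5.34 and -5.46 (by 7.24 ± 0.14). Cd83 (-6.68 ± 0.08), a maturation marker of antigen-presenting cells, and Flt1 (-5.95 ± 0.23), the gene of VEGF receptor 1, came next, although the 3 Flt1 probes spread from -5.95 to -1.52. Cd83 was as high in control (5.50 and 5.33) as with IL-4 (5.49 and 5.54), whereas Flt1 was at -2.88 and -2.24 in control and 4.24 and 4.23 with IL-4.

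Other lower genes of this list were Cd200r1 (-3.24 ± 0.12), an inhibitory receptor gene, Folr2 (-0.81 ± 0.07), which codes for a folate receptor, and Fcer2a (-0.80 ± 0.22), which codes for the low-affinity IgE receptor CD23. The call of Fcer2a was lost without IL-4 replicate 1 (-0.73), IL-4 replicate 2 (-0.86) or colony replicate 1 (-0.55). Cd209a, a lectin gene of the DC-SIGN family, was at least 2.86-fold lower. Msr1, the scavenger receptor A gene, was at 2.32 and 2.39 with IL-4 and 2.13 and 2.27 in colony cells, a difference of -0.16 (interval -0.38 to 0.07, adjusted p = 0.18 by limma). Its mean over 2 probes, -0.52, was called.

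The 3 surface genes that were higher were Cdh1, Slc7a2 and Il4ra. Cdh1, which codes for E-cadherin, had levels of -4.74 and -4.39 with IL-4 and -0.67 and -0.56 in colony cells, a difference of 3.95 ± 0.78, or 2.42 with normexp. E-cadherin is also a defining protein of epithelium. Of 11 epithelial markers tested 6 were higher, Cdh1 among them, and 4 lower. Their summed signal, which includes Cdh1, was 2035% and 2124% of the IL-4 mean. Their median difference was 2.60. It was -0.03 with normexp, -0.34 in the authors' deposited values and -0.49 over the 8 genes well above background on all 4 arrays. The part of epithelial cells in the Cdh1 value was not tested. Slc7a2, an arginine transporter gene, had levels of -0.42 and -0.40 with IL-4 and 0.26 and 0.21 in colony cells (0.65 ± 0.12), against -5.25 and -4.94 in control. For Il4ra, the receptor chain itself, the 2 probes disagreed: the brighter one gave 0.80 ± 0.08, the other -1.40, and their mean of -0.30 was not called.

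In the signalling and transcription group, 4 of 16 genes were higher, 11 lower and 1 was not called, with a median of -2.45. The 4 lowest were the transcription factor genes Irf4, Egr2, Pparg and Batf3, which differed by -6.19 ± 0.16, -5.74 ± 0.10, -5.68 ± 0.10 and -5.19 ± 0.11. Egr2 had levels of 5.52 and 5.62 with IL-4 and -0.29 and -0.05 in colony cells, below its control levels of 1.66 and 1.62. The feedback inhibitor genes of cytokine signalling, Socs1 (-3.95 ± 0.12) and Cish (-2.05 ± 0.11), were lower as well. Socs1, at -0.63 and -0.58 in colony cells, lay at its control levels of -0.61 and -0.87, while Cish, at 0.20 and 0.37, lay between control (-1.91 and -2.11) and IL-4 (2.28 and 2.40). Tfec (-3.02 ± 0.13), which codes for a factor of the MiT family, and Ppargc1b (-2.85 ± 0.09), which codes for the coactivator PGC-1β, lay beside the leukocyte median. Stat6 and Jak1, whose proteins carry the signal, were lower by less than that median, at -1.66 ± 0.08 and -1.65 ± 0.09. The shared receptor chain gene Il2rg fell by 4.63 ± 0.08.

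Other factor genes were not lower. Klf4, whose product works with STAT6 in alternative activation, had levels of -0.09 and -0.26 in control, 2.64 and 2.72 with IL-4 and 4.58 and 4.77 in colony cells, a difference of 1.99 ± 0.11. Il13ra1, which codes for the partner chain of the type II IL-4 receptor, was higher by 1.87 ± 0.14 (1.18 with normexp), Jak3 by 1.37 ± 0.15 and the histone demethylase gene Kdm6b by 0.51 ± 0.06 (0.34 and not called with median centring). Myc, at 1.97 and 2.12 with IL-4 and 1.92 and 2.02 in colony cells, differed by -0.07 (interval -0.37 to 0.23, adjusted p = 0.63 by limma). Both groups lay above the control levels of Myc, -0.37 and -0.66.

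**Figure D3:**
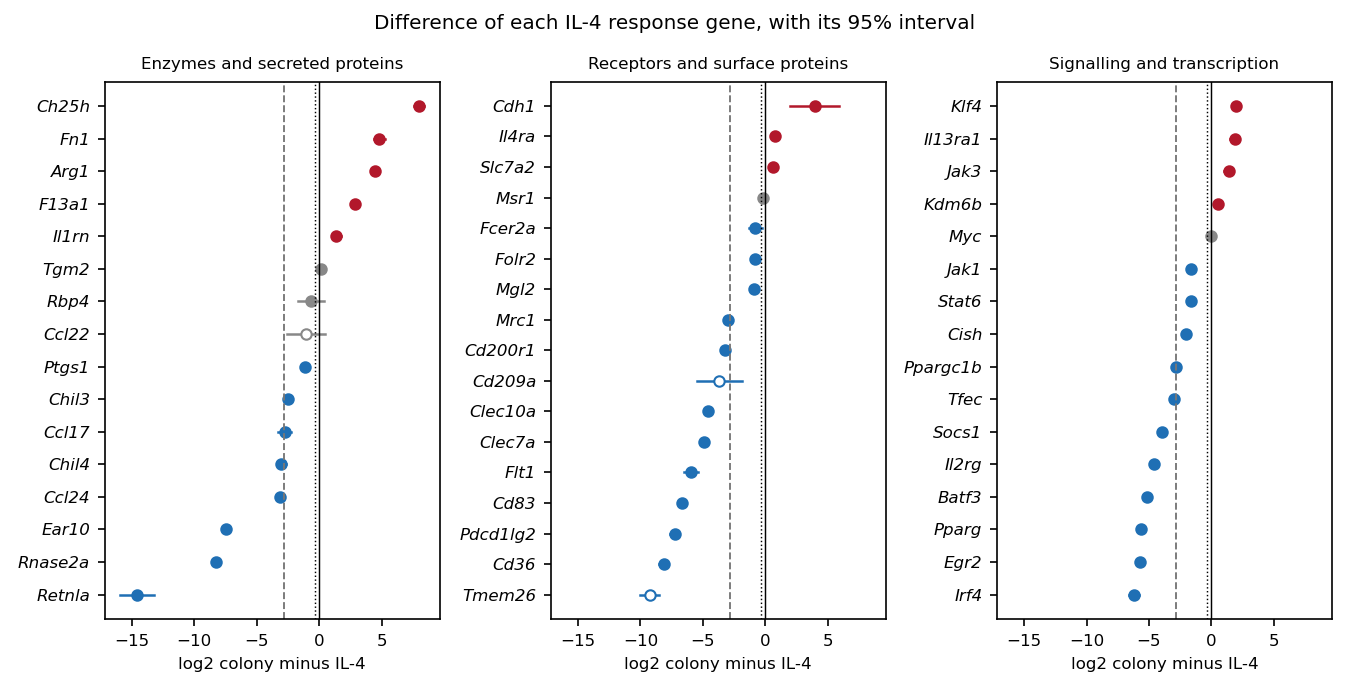
Difference of each of the 49 tested IL-4 response genes (log2, colony minus IL-4, 2 arrays per group) with its 95% interval from limma; red is called higher, blue called lower, grey not called, and open dots are genes not well above background in 1 or both groups. The dotted line marks the median of all genes (-0.37) and the dashed line the median of pan-leukocyte genes (-2.81); 23 of the 49 lie below the dashed line.

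Promoter sequences of some of these genes are shown as context for the STAT6 motif. STAT6 is known to bind a palindrome with 4 free bases in its middle, TTCNNNNGAA, which reads the same on both strands. It was searched in the 250 bases before the gene start in RefSeq promoter windows of GRCm38.p6. The table held windows for 37 of the 52 IL-4 response genes, and 9 of the 37 had a match in at least 1 window. Among all 27025 genes with a window 1826 (6.76%) did, and 5.85% of all 32851 windows. By window, 11 of 51 of the IL-4 genes had one. A match is a description of letters, not of binding, and no match says only that these letters are not in that window. The 5 windows below are those of genes described above, chosen after the values were seen, with the motif in capitals and each written 5′ to 3′ on the gene's strand. Retnla (chr16:48842359-48842608, plus strand), Pdcd1lg2 (chr19:29410669-29410918, plus strand) and Ccl17 (chr8:94810203-94810452, plus strand) were lower in colony cells, Il1rn (chr2:24345041-24345290, plus strand, 1 of its windows) was higher, and Rbp4 (chr19:38125322-38125571, minus strand, 1 of its windows) was not called.
Retnla: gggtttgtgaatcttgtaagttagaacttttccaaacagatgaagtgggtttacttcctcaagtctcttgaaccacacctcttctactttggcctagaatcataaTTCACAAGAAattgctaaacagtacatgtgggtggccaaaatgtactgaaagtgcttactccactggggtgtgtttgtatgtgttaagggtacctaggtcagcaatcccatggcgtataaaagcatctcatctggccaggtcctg
Pdcd1lg2: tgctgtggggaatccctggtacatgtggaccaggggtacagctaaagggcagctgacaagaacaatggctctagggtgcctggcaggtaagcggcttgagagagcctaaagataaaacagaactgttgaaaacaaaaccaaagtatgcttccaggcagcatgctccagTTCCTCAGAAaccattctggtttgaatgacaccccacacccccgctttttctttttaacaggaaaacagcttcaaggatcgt
Ccl17: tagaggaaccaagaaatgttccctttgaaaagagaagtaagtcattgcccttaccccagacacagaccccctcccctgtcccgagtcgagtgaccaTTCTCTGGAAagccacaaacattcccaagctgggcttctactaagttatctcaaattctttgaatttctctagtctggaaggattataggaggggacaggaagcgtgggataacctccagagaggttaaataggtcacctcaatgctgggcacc
Il1rn: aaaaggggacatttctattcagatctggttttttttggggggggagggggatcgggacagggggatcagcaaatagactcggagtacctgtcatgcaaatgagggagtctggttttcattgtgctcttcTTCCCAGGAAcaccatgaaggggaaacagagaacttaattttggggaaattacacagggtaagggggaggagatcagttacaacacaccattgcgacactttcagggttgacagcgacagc
Rbp4: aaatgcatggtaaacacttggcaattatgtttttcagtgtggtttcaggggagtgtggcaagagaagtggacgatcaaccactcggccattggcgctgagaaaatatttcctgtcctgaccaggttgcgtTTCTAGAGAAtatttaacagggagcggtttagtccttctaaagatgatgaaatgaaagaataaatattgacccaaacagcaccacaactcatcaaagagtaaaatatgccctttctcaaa
The same motif thus stood before genes that were lower, higher and not called. Tmem26, at least 150-fold lower, had 2 matches in its window. Clec7a, Fcer2a and Tfec, all lower, had 1 in a window each, and Chil3, Mrc1, Egr2, Irf4, Socs1, Cish and Klf4 had none in theirs.

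The enzymes and transporters around arginase 1 were examined next. Of 14 genes of arginine and polyamine metabolism, 9 were higher and 5 lower, with a median of 0.63 (1.01 with the mean of all probes). Among the members that rose, Slc7a1, the gene of the main arginine transporter, rose from 2.76 and 2.71 to 5.12 and 5.12 (2.39 ± 0.15), and Ass1, whose enzyme makes the precursor of arginine from citrulline, from 0.73 and 0.79 to 4.49 and 4.43 (3.70 ± 0.10). Odc1, the ornithine decarboxylase gene at the entry to polyamine synthesis, rose by 1.79 ± 0.08. The members that fell include Arg2, the mitochondrial arginase gene (at least 10.3-fold lower), Sat1 (-2.29 ± 0.14), whose enzyme acetylates polyamines for export, Sms (-1.80 ± 0.07), the spermine synthase gene, and Asl (-1.14 ± 0.08), which completes arginine synthesis. The summed signal of the list in colony samples was 206% and 211% of the IL-4 mean. Nos2, the inducible nitric oxide synthase gene of classical activation, had levels of -0.07 and 0.08 with IL-4 and 1.43 and 1.43 in colony cells (1.43 ± 0.10), above its control levels of 0.24 and 0.04.

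Genes of classical activation, which LPS and interferon gamma raise, were divided. Of 25 tested, 13 were higher and 11 lower, with a median of 0.51 that was 0.34 with median centring and 0.31 with no filter on dim probes, and turned to -0.30 with normexp and to -0.68 over the 18 genes well above background on all 4 arrays. The higher ones were led by Cxcl3 (at least 71.6-fold) and Cxcl1 (at least 11.2-fold), which attract neutrophils, Ptgs2 (5.48 ± 0.12), the cyclooxygenase-2 gene, and Il6 (at least 14.4-fold). Il6 was not well above background on either IL-4 array, stood at -2.35 and -2.14 in colony cells, and differed by 1.47 with normexp. The lower ones were led by Irf5 (-4.25 ± 0.09), a factor of inflammatory macrophages, Cd80 (-3.51 ± 0.13, or -1.74 as the mean of its 2 probes), a costimulatory ligand gene, Cxcl9 (at least 5.45-fold lower) and Tnf. Tnf had levels of 0.44 and 0.43 with IL-4 and -2.35 and -2.46 in colony cells (-2.84 ± 0.09), and the regulatory cytokine gene Il10 was at least 9.62-fold lower. Il12b was not well above background in either group.

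Interferon response genes gave a mixed picture of moderate size. Of 28 tested, 10 were higher and 15 lower, with a median of -0.32 that is close to that of all genes (-0.04 with quantile normalization and -0.49 with median centring). The highest were Ifi44 (3.32 ± 0.11), Oasl1 (2.20 ± 0.09), Ifit3 (2.16 ± 0.08) and Ifit2 (1.22 ± 0.08), and the lowest Mx1 (-2.97 ± 0.14), Oas3 (-2.28 ± 0.12), Oas2 (-1.84 ± 0.11) and Gbp2 (-1.69 ± 0.08), all genes of antiviral defence. Ifit3 had levels of -0.06 and -0.03 with IL-4, 2.10 and 2.12 in colony cells and 3.96 and 3.83 in control, and Mx1 had -0.29 and -0.22 with IL-4, -3.32 and -3.12 in colony cells and 2.53 and 2.15 in control. For both genes the control level lay above both other groups, but colony cells lay above IL-4 macrophages for Ifit3 and below them for Mx1.

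**Figure D4:**
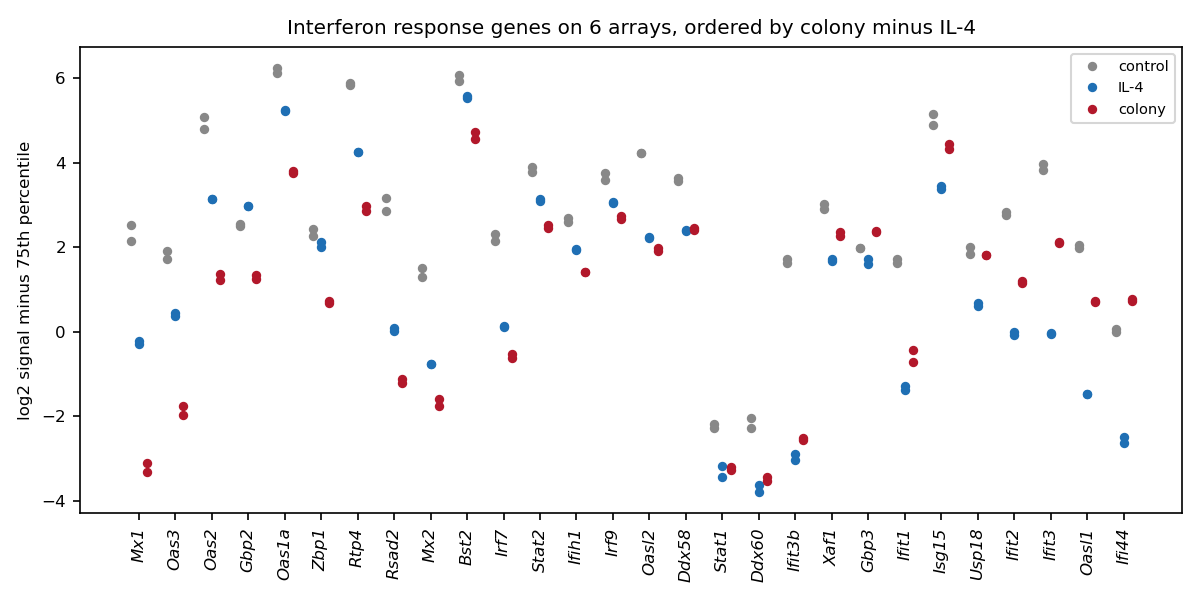
Level (log2 signal minus the array's 75th percentile) of 28 interferon response genes on the control, IL-4 and colony arrays, 2 per group, ordered from the lowest to the highest difference between colony cells and IL-4 macrophages. Mx1 lies at the low end (-2.97) and Ifi44 at the high end (3.32).

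Antigen presentation and pattern recognition were lower in colony cells. Of 12 genes of MHC class II presentation, 11 were lower and none higher, with a median of -3.88, or -3.60 with the dim gene at its bound. H2-Aa, an MHC class II chain gene, fell from 4.38 and 4.29 to -2.92 and -3.20 (by 7.40 ± 0.11), and Cd74, the invariant chain gene, by 6.73 ± 0.11. Of 18 Toll-like receptor and adaptor genes, 16 were lower and 1 higher, with a median of -1.91. Tlr8, a sensor of RNA, fell by 5.71 ± 0.16 and Tlr1, a partner in the sensing of lipopeptides, by 5.07 ± 0.06. The higher one was the flagellin receptor gene Tlr5 (1.48 ± 0.21), which was 0.10 and not called with normexp. Of 25 lysosomal protein genes, 24 were lower and none higher, with a median of -1.35 (-0.83 and 2 higher with quantile normalization), above the leukocyte median of -2.81. Their summed signal was 38.1% and 38.2% of the IL-4 mean, against 18.2% and 18.4% for the pan-leukocyte list. The lowest were Lipa (-3.99 ± 0.15), the lysosomal acid lipase gene, and Laptm5 (-3.87 ± 0.24), which is in the leukocyte list too.

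The cell fusion and osteoclast genes, several of which IL-4 raises on its way to giant cells, were lower for 12 of 14 and higher for 2, with a median of -1.54. Dcstamp, whose product is needed for macrophages to fuse, had levels of 3.94 and 3.96 with IL-4 and -4.61 and -4.42 in colony cells (-8.46 ± 0.10), and Ocstamp, its relative, fell by 5.11 ± 0.11. Mmp9, which codes for the gelatinase MMP-9, went the other way: it was not well above background on either IL-4 array, stood at -0.24 and -0.38 in colony cells, and was at least 55.1-fold higher. The other higher gene was Car2, the carbonic anhydrase 2 gene (1.64 ± 0.20, or 0.66 with normexp).

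Fatty acid oxidation, a pathway that IL-4 macrophages are known to favour, had 15 of 16 genes lower and 1 higher, with a median of -0.91 (-0.55 and 13 lower with quantile normalization). Cpt1a, whose enzyme starts the import of fatty acids into mitochondria, was at 3.81 and 3.81 with IL-4 and 2.02 and 1.95 in colony cells (-1.83 ± 0.07), and Hadhb, a subunit gene of the trifunctional protein, fell most, by 2.20 ± 0.07. The higher one was Cpt1b (0.65 ± 0.17), the muscle form of Cpt1a, whose call was lost without IL-4 replicate 2 (0.61), without colony replicate 2 (0.57) and with normexp (0.23). Of 22 glycolysis and hypoxia genes, 14 were higher and 2 lower, with a median of 0.71. Egln3, an oxygen sensor gene that low oxygen itself raises, had levels of -4.81 and -4.70 with IL-4 and 3.71 and 3.71 in colony cells (8.46 ± 0.09), and Car9, the carbonic anhydrase 9 gene, rose by 2.82 ± 0.09. The 2 lower ones were the glycolytic enzyme genes Pfkp (-0.99 ± 0.08) and Aldoa (-0.50 ± 0.10), at -0.64 and 0.05 with quantile normalization. Vegfa, the growth factor gene of blood vessels and a hypoxia target, had levels of 2.52 and 2.54 with IL-4 and 4.08 and 4.06 in colony cells (1.54 ± 0.06). Of 22 cholesterol synthesis genes 6 were higher and 13 lower, with a median of -0.41, next to that of all genes (-0.12 and 9 lower with quantile normalization). Srebf2, which codes for their main transcription factor, gave -3.63 ± 0.10 by its brighter probe and -2.07 as the mean of 2.

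Cell division genes were higher. Of 32 replication and mitosis genes 29 were higher and 2 lower, with a median of 2.70, or 2.64 with the dim gene at its bound. Rrm2, a ribonucleotide reductase subunit gene, had levels of -0.42 and -0.31 with IL-4 and 3.92 and 3.96 in colony cells (4.31 ± 0.12), and the cyclin gene Ccnb2 rose by 4.24 ± 0.10. The 2 that fell were Pcna (-1.67 ± 0.08), the sliding clamp gene of DNA replication, and Cenpa (-1.48 ± 0.12), the centromere histone gene. Of 23 myeloid transcription factors 7 were higher and 15 lower, with a median of -2.61. Of the factors known from early blood cells, Gata2 was at least 26.8-fold higher, and Gata1 (3.38 ± 0.36), Myb (2.74 ± 0.18) and Gfi1 (2.24 ± 0.20) rose too, by 1.11, 1.11 and 0.89 with normexp; Gata1 was well above background on 1 of the 2 IL-4 arrays. Spic, a factor gene of red pulp macrophages, was at least 81.7-fold lower, and Nr1h3, which codes for the sterol receptor LXRα, fell by 5.74 ± 0.08. Other haematopoietic markers gave values beside these. Of 17 neutrophil granule genes 11 were higher and 2 lower, and of 14 progenitor markers 7 were higher and 5 lower, against 24.3% and 47.4% of all genes. The summed neutrophil granule signal in colony samples was nevertheless only 71.5% and 79.0% of the IL-4 mean. Among the lower progenitor markers were the factor genes Gfi1b (-2.16 ± 0.22, or -1.33 with normexp) and Mecom (-1.03 ± 0.22, or -0.46 with normexp), and the summed progenitor signal was 28.04% and 28.22% of the IL-4 mean.

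Secreted signals were mixed. Of 26 chemokines 15 were higher and 8 lower, with a median of 1.89 (1.09 with normexp and 0.69 with no filter on dim probes). Cxcl12 (8.23 ± 1.10), which holds blood stem cells in the marrow, and Ccl12 (5.40 ± 0.09), a monocyte attractant gene, were the highest of those measured in both groups. Ccl12 was at -2.63 and -2.74 with IL-4 and 2.73 and 2.70 in colony cells, and Cxcl16, which scavenger macrophages make, fell by 4.10 ± 0.10. Their receptors had 3 of 13 higher and 6 lower, shares near those of all genes (24.3% and 47.4%). Ccr2, the receptor gene by which monocytes follow chemokines, fell by 3.70 ± 0.10, and Ackr3, a decoy receptor gene for Cxcl12, was at least 237-fold higher. Of 23 haematopoietic cytokine and receptor genes 7 were higher and 11 lower, again near the shares of all genes. Csf1, the gene of M-CSF, rose from 0.02 and 0.07 to 3.78 and 3.74 (3.72 ± 0.07), while the receptor subunit gene Csf2rb2 fell by 4.06 ± 0.08. Of 27 angiogenic genes 12 were higher and 11 lower, with a median of 1.06, or 0.79 with dim genes at their bounds; the median turned to -0.02 with normexp and to -0.59 over the 21 genes well above background on all 4 arrays. Vegfd, a growth factor gene of lymphatic vessels, rose by 6.88 ± 0.38 (4.51 with normexp; well above background on 1 of the 2 IL-4 arrays), Tek, which codes for the angiopoietin receptor TIE2, was at least 4.25-fold higher, and Igf1, a growth factor gene that macrophages make, fell from 7.01 and 7.07 to 0.88 and 0.99 (by 6.10 ± 0.07).

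Collagens had the highest median of the 22 function lists. Of 15 collagen genes 13 were higher and 1 lower, with a median of 8.66, or 7.05 with dim genes at their bounds, as 7 were not well above background in IL-4 macrophages; the median was 5.13 with normexp and 5.48 over the 6 genes well above background on all 4 arrays. Col3a1, a chain of fibrillar collagen, had levels of -6.10 and -5.43 with IL-4 and 5.82 and 5.82 in colony cells (11.59 ± 0.27), and Col4a1, a basement membrane collagen gene, was at least 1313-fold higher. Of 28 other matrix genes 24 were higher and 2 lower, and of 23 proteases and inhibitors 18 were higher and 3 lower. The gene of the protease inhibitor Timp3 rose by 12.05 ± 0.54, and that of the gelatinase Mmp2 by 9.41 ± 0.27. Col3a1, Timp3 and Mmp2 were each well above background on only 1 of the 2 IL-4 arrays. These genes are made by fibroblasts and mesothelium, whose marker counts are given above, and their cell of origin was not tested. The fibroblast list itself holds collagen and matrix genes, among them Col3a1 and Dcn, so its count is not independent of the counts here.

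The 12 genes with a symbol that had the highest measured differences were Msln, Rhox5, Vat1l, Dcn, Efemp1, C1s2, Upk3b, C1s1, Wt1, Upk1b, Perp and Ptgis. Neither their order nor their place among the highest is settled, since the representing probe of each was not well above background on the IL-4 arrays. The first 11 have bounds from at least 2190-fold (Perp, a desmosome gene) to at least 13130-fold (Msln). The bound of C1s2 is that of its brighter probe, and its 2 probes gave 13.86 and 6.94. Rhox5, a homeobox gene, was at least 9332-fold higher, Dcn, which codes for the matrix proteoglycan decorin, at least 9320-fold, and Wt1, a factor gene of mesothelium, at least 2225-fold. For Ptgis, the prostacyclin synthase gene, the 2 probes disagreed: 12.61 ± 1.56 by the one that represents it, which was not well above background on the IL-4 arrays, and 0.34 by the other. The 12 lowest were Retnla, Scn3a, Ms4a4a, Hpgd, Tmem26, Clec4a3, Gprc5c, Clec4a1, Adipoq, Dcstamp, Kcnj10 and Rnase2a. Hpgd, whose enzyme breaks down prostaglandins, was at least 206-fold lower. Scn3a, which codes for a sodium channel, was at least 228-fold lower by its brightest probe, and its 5 probes spread from -10.03 to -4.05. Adipoq, the adiponectin gene, was at least 102-fold lower and Kcnj10, a potassium channel gene, at least 97.4-fold. Ms4a4a (-9.70 ± 0.12), a membrane protein gene of macrophages, and the lectin genes Clec4a3 (-8.95 ± 0.21) and Clec4a1 (-8.64 ± 0.11) were measured in both groups. Ms4a4a had levels of 5.10 and 5.13 with IL-4 and -4.75 and -4.42 in colony cells. It stood at 4.56 and 4.56 in control and was highest with LPS (6.46 and 6.50).

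**Figure D5:**
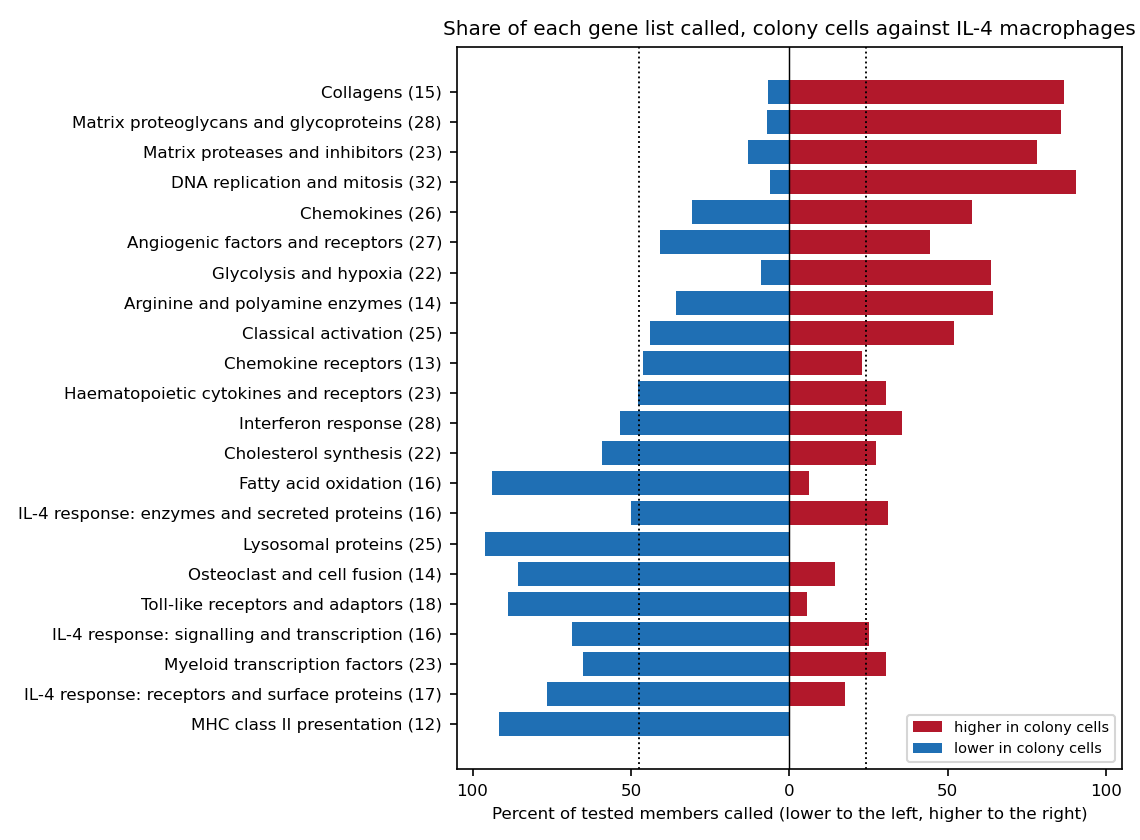
Percent of the tested members of each of 22 function lists (number tested in brackets) that were called higher (red, to the right) or lower (blue, to the left) in colony cells, ordered by the list's median difference. Dotted lines mark the share of all genes called higher (24.3%) and lower (47.4%); MHC class II is at the bottom, collagens at the top.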

How the data were processed

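RNA of 8 samples was read on 1-colour arrays on 1 slide in 1 scan. The authors deposited scanner files of Agilent Feature Extraction 10.7.3.1, per the file headers, with the background-subtracted intensity and 0 or 1 flags of each spot. The deposited value table holds log2 values whose scale, set against the scanner files, differs from log2 of the processed signal by 1 constant per array, between 3.81 and 4.20 (median 2.93 and 2.93 in the IL-4 columns, 2.91 and 2.88 in the colony columns). The reason for the constants is unknown. The submitters' processing notes name Partek 6.4 and RMA, and the file headers mm9.

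From the scanner files, log2 of the processed signal minus each array's 75th percentile was taken for non-control probes that were well above background on both arrays of any group. Of 55681 non-control probes, 26762 were named through their transcript, 3819 through their symbol and 639 through a unique synonym in RefSeq, and 24461 kept the name in the file. The probe with the highest mean stood for a gene. limma 3.58.1 in R 4.3.3 fitted all 4 groups of 2 arrays, with Benjamini-Hochberg adjustment over 26504 genes. The number of arrays limits the precision. The script was tested on simulated data. Members and gene lists were chosen with earlier results of these data known. Named are the 12 highest and 12 lowest genes with a symbol among those called and measured in the higher group, at most 4 risers and 4 fallers of each list, a panel of macrophage genes and all IL-4 response genes. Alternatives were normexp (offset 50), median centring, quantile normalization, the deposited table, other filters, the mean of probes, other fits, a replicate block and leaving out each array.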

Additional observations from a re-analysis of the deposited data

How the results depend on the processing

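Both counts of called genes stayed within 1.5 times their value under every alternative run: genes higher in colony cells numbered 4930 to 7366 and genes lower 10598 to 14732, against 6441 and 12550. Leaving out each array in turn gave 5643 to 6674 higher and 10598 to 12908 lower; a group left with 1 array was taken to vary like the others. Of 265 named genes, the direction turned for Il12b with normexp (-0.30), for Aldoa with quantile normalization (0.048), and with the mean of all probes for Il4ra (-0.30), Vcan (1.30), Nkg7 (1.12) and Mcam (1.12), whose probes disagree. With normexp 2 named genes lost their call and 3 gained one, and leaving out 1 array removed at most 8. The replicate numbers are not stated to pair the samples: deviations of same-numbered arrays correlated between -0.16 and 0.05 across pairs of groups. With the replicate number as a block, 6285 genes were higher and 12233 lower, and 1 named gene lost its call. Signals near background limit the size of a fold: normexp moved 29 of 202 called differences measured in both groups by over 1.5 times.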
